A study of Mus musculus with 7 samples.

Results

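The Hox genes encode homeodomain transcription factors and lie in 4 clusters of the mouse genome. The set described here comprised 38 Hox genes, taken by symbol from a rule that counts 39 and lists 38, out of 21631 protein-coding genes on the autosomes and the X chromosome. They were 10 genes of the Hoxa cluster on chromosome 6, 10 of the Hoxb cluster on chromosome 11, 9 of the Hoxc cluster on chromosome 15 and 9 of the Hoxd cluster on chromosome 2. Each gene was described over a window of its body with 1 kb on each side, and each cluster between the outer ends of its listed genes with 1 kb on each side. The choice used gene names and no measured value.

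Sites of replication initiation were mapped in mouse embryonic stem cells (mESCs) by sequencing short nascent strands, the small DNA pieces made where a fork has just started, after digestion with lambda-exonuclease, which spares strands protected by an RNA primer. There were 3 conditions with 2 libraries each. WT 1 came from untreated wild-type mESCs, submitted earlier and grown in another medium, and WT 2 from untreated TetO-CDC6 mESCs, which carry a doxycycline-inducible CDC6 transgene. APH 1 and APH 2 came from TetO-CDC6 mESCs exposed for 2.5 h to 0.5 µM aphidicolin, which slows forks by blocking DNA polymerases. CDC6 1 and CDC6 2 came from TetO-CDC6 mESCs in which 30 h of 1 µg/ml doxycycline drove overexpression of CDC6, which helps to load the replicative helicase at origins. An Input sample of untreated TetO-CDC6 cells had no list used here. Untreated doxycycline-free cells served as the only control, so doxycycline and CDC6 cannot be told apart. The WT pair differs in cell line and medium, so line, medium and library cannot be told apart within it. The cells' identity and the CDC6 level were not checked, since DNA libraries carry no expression.

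As background, Hox genes give cells their position along the head-to-tail axis and along the limb. Their order in a cluster follows the order in which they are switched on and the place where they act: paralogue groups with low numbers act in the hindbrain and neck, the middle groups in the trunk, and those with high numbers in the lumbar and tail regions and the distal limb. In embryonic stem cells the clusters are largely silent, rich in CpG dinucleotides and covered by Polycomb proteins. Origins of mammalian cells are often found near CpG islands and active or poised promoters.

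Sequence upstream of the start was available in RefSeq's table (GRCm38.p6) for 24 promoters of 22 of the 38 genes. The 7 stretches below, each the 250 bases before a start written 5′ to 3′ on the strand of the gene with every CpG in capitals, are examples with and without an origin, chosen because CpG-rich and CpG-poor promoters occur in both sets. Hoxd13 (chr2:74667975-74668224, plus strand), Hoxd1 (chr2:74762730-74762979, plus strand) and Hoxd8 (chr2:74704365-74704614, plus strand) had an origin on the promoter in all 3 condition lists. Hoxa13 (chr6:52260881-52261130, minus strand) had one in the APH and CDC6 lists, and Hoxd10 (chr2:74691641-74691890, plus strand), Hoxd12 (chr2:74674763-74675012, plus strand) and Hoxa9 (chr6:52227371-52227620, minus strand) had none. The promoters of Hoxd10, Hoxd12 and Hoxa9 nevertheless each overlapped a peak called in the WT 1 and CDC6 1 libraries.
Hoxd13: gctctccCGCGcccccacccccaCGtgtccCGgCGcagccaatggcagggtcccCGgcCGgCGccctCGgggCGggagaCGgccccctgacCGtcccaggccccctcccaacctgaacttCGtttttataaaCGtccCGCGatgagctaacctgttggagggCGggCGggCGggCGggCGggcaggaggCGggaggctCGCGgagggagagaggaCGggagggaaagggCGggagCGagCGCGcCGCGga
Hoxd1: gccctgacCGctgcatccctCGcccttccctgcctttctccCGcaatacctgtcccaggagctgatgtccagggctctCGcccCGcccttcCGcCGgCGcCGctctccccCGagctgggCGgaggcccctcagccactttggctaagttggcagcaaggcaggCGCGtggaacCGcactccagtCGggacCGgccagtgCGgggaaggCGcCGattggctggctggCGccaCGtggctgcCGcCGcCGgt
Hoxd8: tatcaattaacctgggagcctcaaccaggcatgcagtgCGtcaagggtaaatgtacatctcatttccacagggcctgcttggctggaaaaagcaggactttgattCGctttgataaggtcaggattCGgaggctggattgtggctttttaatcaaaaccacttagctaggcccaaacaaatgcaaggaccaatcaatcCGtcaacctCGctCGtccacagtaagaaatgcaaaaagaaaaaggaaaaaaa
Hoxa13: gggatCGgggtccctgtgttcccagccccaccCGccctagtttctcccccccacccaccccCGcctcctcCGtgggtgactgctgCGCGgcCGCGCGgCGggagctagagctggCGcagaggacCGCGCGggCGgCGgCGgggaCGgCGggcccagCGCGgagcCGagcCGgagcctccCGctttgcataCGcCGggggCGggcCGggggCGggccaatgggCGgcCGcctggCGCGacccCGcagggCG
Hoxd10: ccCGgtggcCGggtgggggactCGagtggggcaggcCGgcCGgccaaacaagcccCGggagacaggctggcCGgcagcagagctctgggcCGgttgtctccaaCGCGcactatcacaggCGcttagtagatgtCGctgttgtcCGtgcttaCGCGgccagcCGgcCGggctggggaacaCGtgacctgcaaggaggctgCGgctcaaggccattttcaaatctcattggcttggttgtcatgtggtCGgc
Hoxd12: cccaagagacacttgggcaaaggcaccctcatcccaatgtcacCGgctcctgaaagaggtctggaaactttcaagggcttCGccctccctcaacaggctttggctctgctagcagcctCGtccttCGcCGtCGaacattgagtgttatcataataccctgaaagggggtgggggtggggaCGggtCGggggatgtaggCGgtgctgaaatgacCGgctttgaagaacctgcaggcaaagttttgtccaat
Hoxa9: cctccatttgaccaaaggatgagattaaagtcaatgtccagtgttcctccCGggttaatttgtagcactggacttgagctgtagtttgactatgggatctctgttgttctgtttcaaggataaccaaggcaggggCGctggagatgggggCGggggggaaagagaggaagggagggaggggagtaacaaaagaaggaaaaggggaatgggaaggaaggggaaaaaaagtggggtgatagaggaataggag
These 250 bases held 31 CpG in Hoxd13, 24 in Hoxd1, 6 in Hoxd8, 35 in Hoxa13, 20 in Hoxd10, 10 in Hoxd12 and 3 in Hoxa9.

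The authors deposited 1 list of origins for each condition and a list of MACS peaks for each library. The WT, APH and CDC6 lists held 20178, 31653 and 31384 origins on the chromosomes used, and the libraries held 71435 to 94747 peaks covering 4.23% to 5.95% of the chromosome span. Read depth is unknown, since the lists hold no counts. No label states separate cultures for the libraries of a condition. The p-values therefore rest on the spread between these samples alone, which may be technical and for the WT pair includes line and medium. The median share of the window covered by peaks over all genes was 8.35% in WT 1, 4.17% in WT 2, 3.92% and 4.36% in APH 1 and 2, and 5.81% and 5.74% in CDC6 1 and 2. WT 1 thus stood apart from WT 2, and results that rest on 1 WT library are given for each.

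The labels of the deposited lists go against each other. Every row of the WT origin list was also a row of a second list labelled APH 1, every row of the APH list one labelled CDC6 1, and every row of the CDC6 list one labelled CDC6 2. MACS peaks labelled with the condition named overlapped 99.43% and 100.0% of the WT origins, 99.98% and 100.0% of the APH origins, and 99.95% and 100.0% of the CDC6 origins. Peaks labelled otherwise overlapped 74.07% to 90.08%. The condition of each origin list is therefore given as its own label and the MACS labels have it, and the WT and APH lists go against the labels of the second lists.

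Across the Hox genes, 21 of 38 had an origin of the WT list in their window, 20 of 38 one of the APH list and 28 of 38 one of the CDC6 list. Over all protein-coding genes the shares were 43.5% in the WT list, 47.9% in the APH list and 53.3% in the CDC6 list, against 55.3%, 52.6% and 73.7% of the Hox genes. An origin in every list was found at 18 Hox genes, 47.4% against 37.5% of all genes, and no origin in any list at 8 Hox genes, 21.1% against 40.9%. Among the 17 Hox genes without a WT origin, 8 had a CDC6 origin (47.1%, against 22.6% of all genes without a WT origin) and 2 an APH origin (11.8% against 15.8%). With the lists cut to 20178 origins each, the counts were 21, 20 and 27. With 1 list for each condition these counts have no replicate test. Counted as the authors' peaks in both libraries of a condition, they were 32, 33 and 35 of 38 for WT, APH and CDC6, and the order of WT and APH depended on that choice. Counted on the second lists as labelled they were 35, 31 and 31, so that WT led and CDC6 did not. The shares over all genes under these other definitions are not given here, so their orders are not shown to be particular to Hox genes.

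MACS peaks were more widespread than listed origins. A peak lay in the window of 38 Hox genes in WT 1 (77.2% of all genes), 32 in WT 2 (66.0%), 33 and 34 in the APH 1 and APH 2 libraries (65.6% and 68.0%), and 37 and 35 in the CDC6 1 and CDC6 2 libraries (72.5% and 73.1%). Peaks of all 6 libraries met at 30 Hox genes, 78.9% against 55.8% of all genes. No Hox gene was without a peak in every library. The median covered share of a Hox window was 54.6% in WT 1 and 30.2% in WT 2, 28.6% and 37.3% in APH 1 and 2, and 44.7% and 42.3% in CDC6 1 and 2, each above the median over all genes in that library. Hox genes are short, with a median length of 3721 bp against 17329 bp, and a peak of a given width covers more of a short window. Windows of neighbours overlap, so Hoxa3 shares peaks with each of Hoxa4, Hoxa5 and Hoxa6. Other examples are Hoxb7 and Hoxb8, Hoxb5 and Hoxb6 (in WT 1), Hoxb3 and Hoxb4, Hoxc4, Hoxc5 and Hoxc6, Hoxd3 and Hoxd4, and Hoxd10 and Hoxd11. The strongest peaks of Hoxd8 and Hoxd9 had equal fold in APH 2 (6.85) and in CDC6 1 (6.38), and may be the same peak there. Across the clusters the lists merged into 41 regions, of which 8 touched the windows of more than 1 gene and 1, between Hoxa11 and Hoxa13, touched none.

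**Figure D1:**
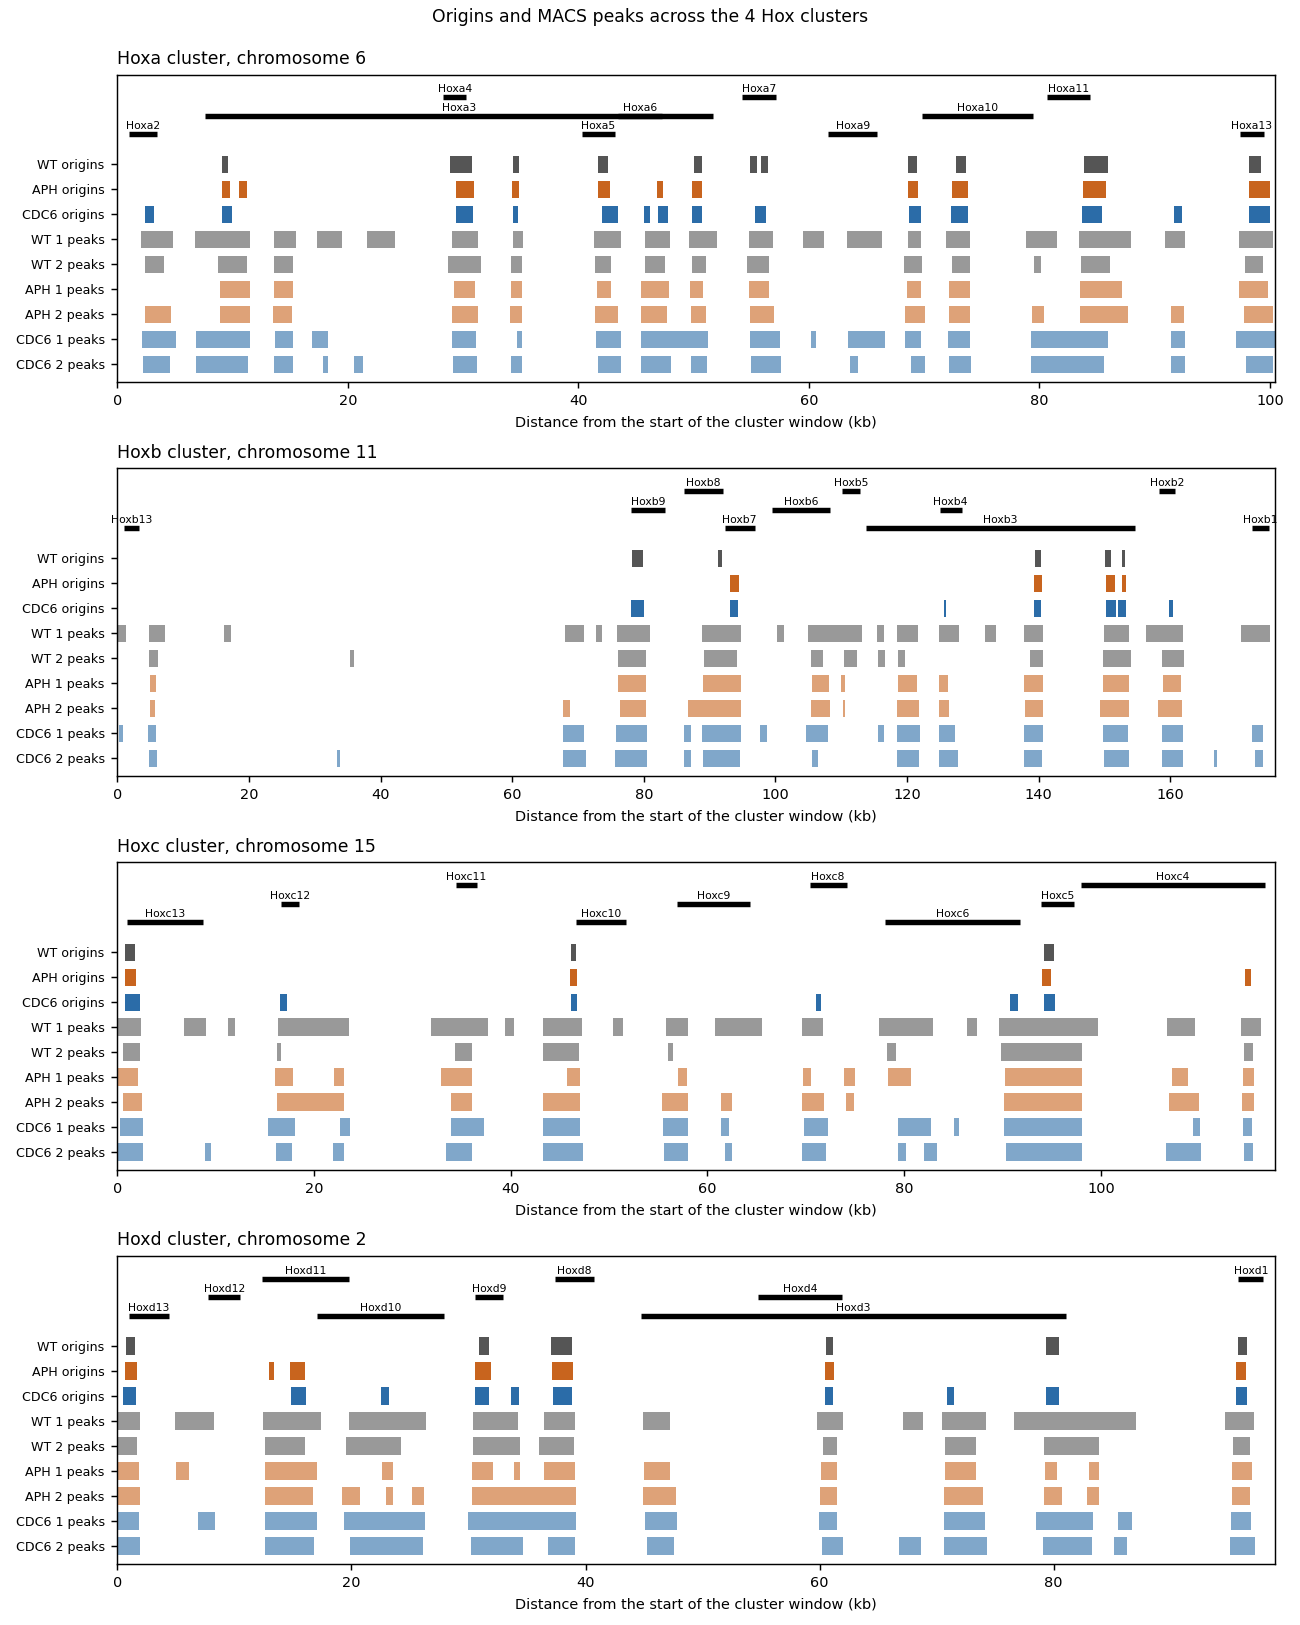
Maps of the 4 clusters, with the distance from the start of the cluster window in kb on the horizontal axis. Black bars are genes; the upper 3 rows are the authors' origins of the WT, APH and CDC6 lists and the lower 6 rows the MACS peaks of each library. Origins were dense in Hoxa (11, 11 and 14 in the 3 lists) and sparse between Hoxb13 and Hoxb9.

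**Figure D2:**
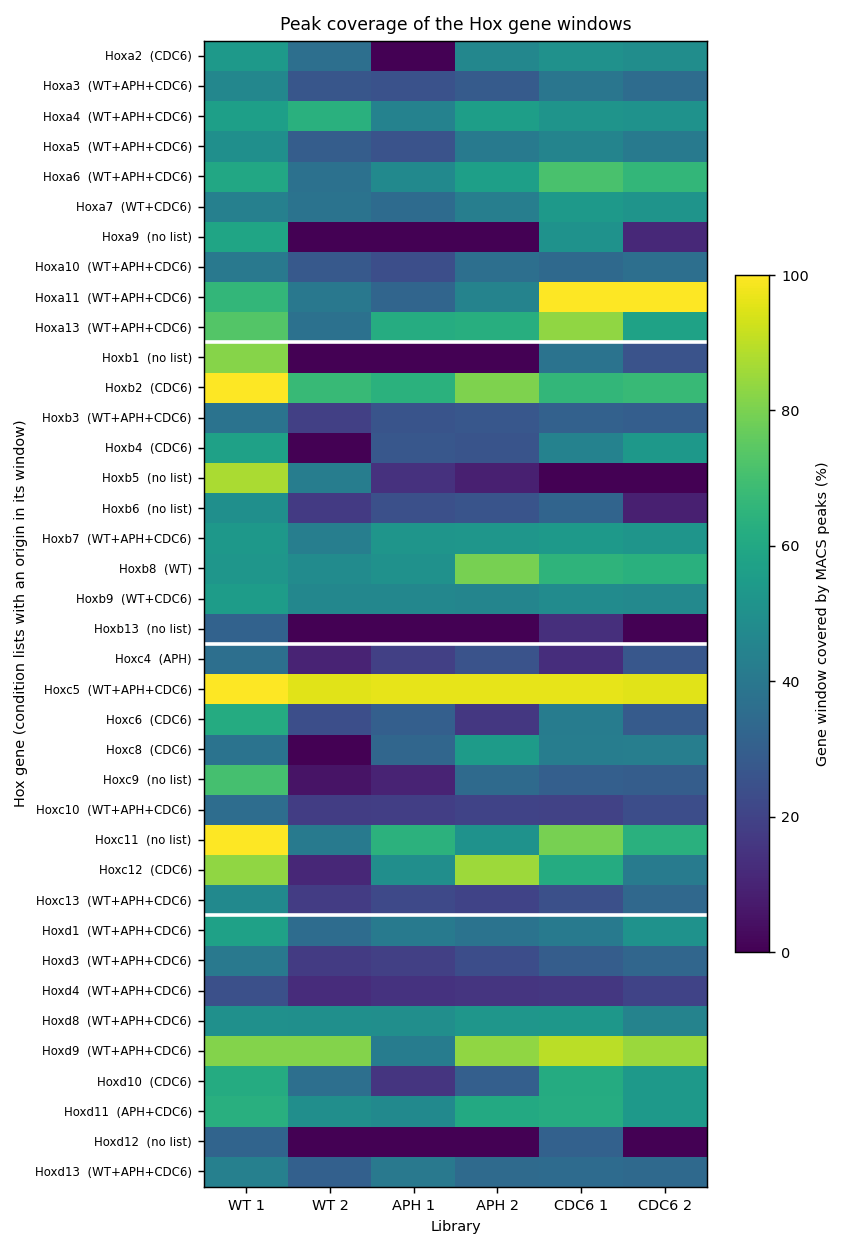
Share of each Hox gene window covered by MACS peaks (colour, in percent) in the 6 libraries, with the condition lists that hold an origin named beside each gene. Hoxc5 was covered by 95.6% to 100.0% in every library, while Hoxa9, Hoxb1, Hoxb13 and Hoxd12 were at 0 in WT 2 and both APH libraries.

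The covered shares of single genes are given without scaling, and so are the orders of libraries and overlaps of pairs stated with them. Total cover differed between libraries, and orders changed once cover was scaled to equal totals: both CDC6 libraries were above the other 4 at 17 of 38 Hox genes with scaling (44.7%, against 27.1% of all genes) and at 4 of 38 without it (10.5% against 9.65%). Genes where this held only with scaling include Hoxa2, Hoxa5, Hoxa10, Hoxa13, Hoxb7, Hoxd11 and Hoxd13. Those where it also held without scaling were Hoxa6, Hoxa7, Hoxa11 and Hoxd9.

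The anterior genes, paralogue groups 1 to 4, had an origin at 6, 7 and 9 of 11 members in the WT, APH and CDC6 lists. Those with an origin in all 3 lists were Hoxa3, Hoxa4, Hoxb3, Hoxd1, Hoxd3 and Hoxd4. Peaks covered 46.3% and 26.7% of the window of Hoxa3, needed for the thymus and parathyroid, in WT 1 and WT 2, 25.2% and 28.6% in APH 1 and 2, and 39.4% and 35.5% in CDC6 1 and 2. Hoxa3 spans its neighbours Hoxa4, Hoxa5 and Hoxa6, and its window held 5, 7 and 7 origins in the 3 lists. Hoxa4, a gene of the cervical and upper thoracic vertebrae, was covered by 56.5% and 63.5% in WT, 44.2% and 56.1% under APH, and 51.9% and 50.8% under CDC6. Both WT libraries were above the other 4 only as WT 1 passed APH 2 by 56.5% to 56.1%; on scaled cover WT 1 was below both CDC6 libraries, and the limma difference for CDC6 minus WT was 0.12 (adjusted p = 0.912). Hoxb3, a hindbrain gene and the member of its cluster with the highest peak rank, was covered by 38.1% and 19% in WT, 26.0% and 27.3% under APH, and 31.1% and 29.9% under CDC6. The CDC6 pair of Hoxb3 was above the APH pair, and the WT pair lay on either side of all 4 other libraries; on scaled cover WT 1 was below the CDC6 pair.

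In Hoxd, the window of Hoxd1, a gene of developing pain-sensing neurons, was covered by 57.1% and 35.2% in WT, 40.8% and 38% under APH, and 41.2% and 51.0% under CDC6. For Hoxd3, which patterns the upper neck vertebrae, the values were 40.3% and 17.5% in WT, 18.9% and 23.6% under APH, and 29.5% and 33.1% under CDC6. At Hoxd4, which marks the boundary of hindbrain and spinal cord, they were 24.4% and 12.7% in WT, 14.8% and 15.4% under APH, and 16.2% and 20.1% under CDC6. At each of these 3 genes both CDC6 libraries were above both APH libraries, WT 1 was the highest library and WT 2 the lowest. On scaled cover CDC6 2 was the highest at all 3. The peak of highest fold at Hoxd4 was also that of Hoxd3.

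Hoxa2, Hoxb2 and Hoxb4 had an origin of the CDC6 list and of no other. At Hoxa2, which sets the identity of the second pharyngeal arch, the covered share was 54.1% and 36.4% in WT, 0% and 46.2% under APH, and 50.7% and 49.2% under CDC6. At Hoxb2, which patterns hindbrain neurons, it was 100.0% and 67.4% in WT, 64.0% and 80.6% under APH, and 66.4% and 67.3% under CDC6. At Hoxb4, known for its use in expanding blood stem cells, it was 57.4% and 0% in WT, 27.2% and 26.1% under APH, and 44.3% and 53.3% under CDC6. The untreated cells therefore had peaks at all 3 genes in WT 1 and at Hoxa2 and Hoxb2 in WT 2, although the WT list held no origin there. Hoxc4 was the only member listed in APH alone, and was covered by 36.7% and 10.1% in WT, 18.8% and 25.4% under APH, and 13% and 27.0% under CDC6. Its 3 pairs overlapped. Hoxb1, which gives a hindbrain segment its identity, had no listed origin, and was covered by 82.0% in WT 1, 38.1% in CDC6 1 and 25.5% in CDC6 2 and by 0% in the other libraries.

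The central genes, paralogue groups 5 to 8, had an origin at 7, 5 and 8 of 11 members in the WT, APH and CDC6 lists. Hoxa5, Hoxa6, Hoxb7, Hoxc5 and Hoxd8 had one in all 3 lists. At Hoxa5, needed for lung maturation, peaks covered 49.8% and 29.6% of the window in WT, 25.6% and 41.4% under APH, and 45.1% and 40.9% under CDC6. Its neighbour Hoxa6 was covered by 59.9% and 37.4% in WT, 47.6% and 56.4% under APH, and 71.1% and 66.4% under CDC6. Both CDC6 libraries were the highest of the 6 at Hoxa6, whereas at Hoxa5 the pairs overlapped. The window of Hoxa6 held 2 regions of the CDC6 list that the WT list lacked, 1 of them shared with the APH list.

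Hoxb7 was covered by 53.3% and 42.9% in WT, 52% and 52.4% under APH, and 54.2% and 52% under CDC6, so that the pairs overlapped. Its WT origin and its origin in the stress lists were separate regions under 1 peak. Hoxb8, which acts in blood-derived cells and the spinal cord, was the only member with an origin in the WT list alone. Its window was nevertheless covered by peaks in every library, with 52.4% and 48.2% in WT, 50.7% and 79.6% under APH, and 65.2% and 63.4% under CDC6. Its WT origin lay under a peak that all 6 libraries shared and that also held that APH and CDC6 region.

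Hoxc5 was covered over nearly its whole window in all 6 libraries, with 100.0% and 95.7% in WT, 96.3% and 96.3% under APH, and 96.3% and 95.6% under CDC6. The broad peak over Hoxc5 reached into the windows of Hoxc4 and Hoxc6. Hoxc6, a gene of the upper trunk and forelimb level, had an origin in the CDC6 list alone and was covered by 61.7% and 24.2% in WT, 30.1% and 16.4% under APH, and 42% and 28.8% under CDC6. Hoxc8, which specifies motor neurons of the forelimb, was likewise listed in CDC6 alone, with 38.2% and 0% in WT, 33.0% and 54.9% under APH, and 42.3% and 42.9% under CDC6. The WT pair of Hoxc8 was split between a peak in WT 1 and none in WT 2. Hoxd8 carried the strongest peaks of the set, with a mean percentile rank of 97.9 among the peaks of a library. It was covered by 50.3% and 49.8% in WT, 49.5% and 52.5% under APH, and 52.9% and 44.7% under CDC6, with no order among the conditions.

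Hoxa7 and Hoxb9 had an origin in the WT and CDC6 lists but not in APH. Peaks nevertheless covered 34.8% to 54.0% of the window of Hoxa7 and 45.6% to 55.1% of that of Hoxb9 in every library, APH included.

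Hoxb5, a gene of the vagal neural crest and the shoulder level, stood apart. It had no origin in any list, and its covered share was 87.3% in WT 1 and 42.4% in WT 2, 14.1% and 8.87% in the APH pair, and 0% in both CDC6 libraries. The WT pair lay above the APH pair and the APH pair above the CDC6 pair. By −log10 q within its library, the strongest Hoxb5 peak had a percentile rank of 82.4 in WT 1 and 9.92 in WT 2. In APH 1 and APH 2 the rank was 8.51 and 41.5. The peaks of WT 2 and APH 1 were thus among the weakest of their lists. Hoxb5 was the only Hox gene whose cover changed by the test across all genes, limma on log2(scaled covered bp per kb + 10), with a CDC6 minus WT difference of -5.85 ± 0.438 (SE, n = 2 libraries each, limma adjusted p = 0.0388). Since both CDC6 libraries were at 0, the size of that difference depends on the added 10 bp per kb and is no bound. The APH minus WT difference of Hoxb5 was -2.33 (limma adjusted p = 0.173) and APH minus CDC6 was 3.52 (limma adjusted p = 0.0554). Over the alternative settings the adjusted p of the CDC6 minus WT difference ran from 0.0142 to 0.819. The call was lost without scaling (-5.95, adjusted p = 0.0519), with a pseudocount of 100 bp per kb (-2.74, 0.064), by number of peaks (-0.95, 0.379) and at −log10 q of at least 2 (-3.12, 0.819). It was also lost with a window of 5 kb on each side (-1.41, 0.733), with the replicate block (-5.85, 0.266) and without any 1 of the APH or CDC6 libraries (-5.85 in each fit, 0.232 to 0.307). It was kept without WT 1 (-5.42, 0.0142) and without WT 2 (-6.28, 0.0330). Its neighbour Hoxb6, also without a listed origin, had cover of 8.8% to 49.7% over the 6 libraries, and its peak in WT 1 was shared with Hoxb5.

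The posterior genes, paralogue groups 9 to 13, had an origin at 8, 8 and 11 of 16 members in the WT, APH and CDC6 lists. Those listed in all 3 were Hoxa10, Hoxa11, Hoxa13, Hoxc10, Hoxc13, Hoxd9 and Hoxd13. Hoxa10, which patterns the lumbar spine and uterus, was covered by 40.5% and 28% in WT, 24.2% and 36.6% under APH, and 34.1% and 36.5% under CDC6, and the pairs overlapped. Hoxa11, a gene of the forearm bones, was covered by 66.2% and 40.2% in WT, 32.5% and 44.9% in APH, and 100.0% in both CDC6 libraries. Both CDC6 libraries of Hoxa11 were above the other 4, where 1 peak ran over the whole window. The limma difference was 1.28 ± 0.351 for CDC6 minus WT (SE, n = 2 each, adjusted p = 0.618) and -1.70 ± 0.351 for APH minus CDC6 (adjusted p = 0.2), neither of which passed. By number of peaks the sign was the opposite, since WT 1, WT 2 and APH 2 had 2 peaks there and each CDC6 library 1 wide peak.

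Hoxa13 and Hoxd13, which build the digits and the genital tubercle, both carried origins near their starts. Hoxa13 was covered by 73.1% and 37.4% in WT, 62.1% and 62.7% under APH, and 83.5% and 57.7% under CDC6, with overlapping pairs. At Hoxd13 the values were 43.7% and 30.7% in WT, 40.6% and 34.5% under APH, and 34.9% and 34.0% under CDC6. The pairs of Hoxd13 overlapped as well, and its promoter is the one printed above with 31 CpG. Hoxd9 was covered by 81.5% and 81.4% in WT, 41.9% and 83.5% under APH, and 89.5% and 84.8% under CDC6. Both CDC6 libraries of Hoxd9 were above the other 4, CDC6 2 only narrowly above APH 2, and APH 1 alone was low.

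Among the posterior Hoxc genes, Hoxc10, a lumbar motor neuron gene, was covered by 35.8% and 18.2% in WT, 18.7% and 20.1% under APH, and 19.9% and 23.7% under CDC6. Hoxc13, known for its role in hair and nails, was covered by 47.5% and 17.7% in WT, 22.0% and 20% under APH, and 24.5% and 33.6% under CDC6. At both genes WT 1 was the highest library, with and without scaling, and WT 2 the lowest without it. Hoxc12 was listed in CDC6 alone, with 83.5% and 11.3% in WT, 49.4% and 85.3% under APH, and 61.4% and 41.6% under CDC6. Its pairs overlapped, and a peak was present in all 6 libraries.

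Hoxd10, a gene of lumbar motor neurons, was listed in CDC6 alone, with cover of 61.5% and 36.7% in WT, 15.5% and 30.1% under APH, and 61.6% and 54.2% under CDC6. Both CDC6 libraries were above both APH libraries, with WT 1 beside CDC6 and WT 2 between them. Hoxd11, which acts with Hoxa11 in the forearm, was the only member listed in both stress lists but not in WT. Its values were 63.0% and 49.3% in WT, 47.4% and 60.6% under APH, and 62.0% and 53.8% under CDC6, and the pairs overlapped.

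The remaining posterior genes, Hoxa9, Hoxb13, Hoxc9, Hoxc11 and Hoxd12, had no listed origin. Hoxc11 was nevertheless covered by 41.3% to 100.0% in the 6 libraries and Hoxc9 by 5.1% to 70.4%. Hoxa9, a gene active in blood progenitors, was covered by 58.7% in WT 1, 50.9% in CDC6 1 and 11.5% in CDC6 2 and by 0% elsewhere. Hoxb13, which limits the tail end of the axis, and Hoxd12, a limb gene, had peaks only in WT 1 (31.4% and 32.3%) and CDC6 1 (13.3% and 31.1%).

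Of the 8 Hox genes with a CDC6 origin and no WT origin, 8 had a MACS peak in WT 1, 6 in WT 2, 7 in APH 1 and 8 in APH 2. Hoxb4 and Hoxc8 were those without a peak in WT 2, and Hoxa2 the one without a peak in APH 1. The shares over all 2765 genes with a CDC6 and no WT origin are not given here. Over the whole CDC6 list, 77.52% of origins overlapped a WT 1 peak and 81.48% a WT 2 peak. For APH 1 and APH 2 peaks these shares were 82.85% and 88.0%. They count single origins, including those also in the WT list, and not gene windows. They are thus no base for the counts of Hox genes. Among the 41 merged regions of the clusters, 20 were in all 3 lists (48.8%, against 25.5% of 46639 regions of all lists), 11 in the CDC6 list alone (26.8% against 20.1%), 3 in the APH list alone (7.32% against 19.3%), 3 in APH and CDC6 (7.32% against 17.6%), 3 in WT and CDC6 (7.32% against 3.86%) and 1 in the WT list alone (2.44% against 8.3%). A WT 1 peak lay on all 41, a WT 2 peak on 38, and peaks of all 6 libraries on 37. The 4 regions short of 6 libraries were in the CDC6 list alone. The shares of all 46639 regions with such peaks are not given here, so these counts are not shown to be particular to the clusters.

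By cluster, the WT, APH and CDC6 lists held 11, 11 and 14 origins in Hoxa, 5, 4 and 7 in Hoxb, 3, 4 and 6 in Hoxc, and 6, 7 and 10 in Hoxd. Over the 4 clusters that was 5.07, 5.27 and 7.5 origins per 100 kb, against 0.768, 1.2 and 1.19 over the whole lists, while flanks of equal length on each side held 8, 11 and 9 origins in all. The CDC6 list held 1.48 times as many origins as the WT list in the clusters (1.56 times over the whole lists), and the APH list 1.04 times as many (1.57 times over the whole lists). The CDC6 list held 1.42 times as many as the APH list, against 0.992 times over the whole lists. These are counts of 25, 26 and 37 origins, 1 list for each condition, with no test.

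Peaks covered 46.0% and 23.6% of Hoxa in WT 1 and WT 2, 22.4% and 29.9% in APH 1 and 2, and 41.6% and 34.8% in CDC6 1 and 2. Hoxb was covered by 31.3% and 15.1% in WT, 16.0% and 18.4% under APH, and 22.1% and 20% under CDC6. Hoxc was covered by 46.5% and 15.4% in WT, 21.3% and 28.6% under APH, and 27.5% and 27.7% under CDC6. In Hoxb and Hoxc WT 2 was the lowest library. Hoxd was covered by 46.8% and 27.1% in WT, 23.3% and 30.0% under APH, and 39.8% and 36.6% under CDC6. Without scaling WT 1 was the highest library in all 4 clusters. The flanks of the 4 clusters lay between 1.37% and 13.4%, below their cluster in every library.

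**Figure D3:**
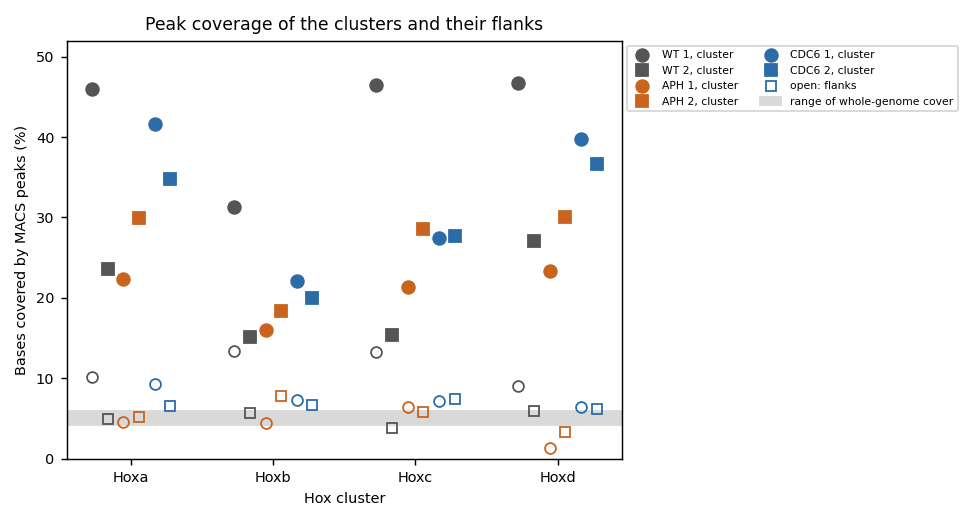
Share of bases covered by MACS peaks (percent) in each Hox cluster (filled symbols) and in its flanks of equal length on each side (open symbols), by library; circles are the libraries numbered 1 and squares those numbered 2. The grey band is the range of cover over the whole genome, 4.23% to 5.95%; clusters lay between 15.1% and 46.8%.

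After scaling to equal total cover, Hoxa had 317 ± 120 covered bp per kb in WT, 249 ± 82.2 in APH and 452 ± 65.2 in CDC6 (mean ± SD, n = 2 libraries each). Hoxd had 338 ± 101 in WT, 253 ± 78.3 in APH and 451 ± 34.8 in CDC6. Hoxb had 211 ± 88.3, 162 ± 37.2 and 249 ± 22.0, and Hoxc 280 ± 181, 237 ± 79.6 and 326 ± 4.12. On this scale both CDC6 libraries were above both APH libraries in all 4 clusters; without scaling they overlapped in Hoxc. Both CDC6 libraries were above WT 1 in Hoxa and Hoxd, and WT 1 was above both APH libraries in every cluster; WT 2 lay between them in Hoxa, Hoxb and Hoxd and below them in Hoxc. The 4 stressed libraries minus the 2 WT libraries gave 32.9 bp per kb in Hoxa, -5.68 in Hoxb, 2.17 in Hoxc and 13.8 in Hoxd (two-sided exact permutation p = 0.8, 0.8, 1.0 and 0.933, adjusted p = 1.0 for each of 4). This pooled difference joins opposite signs. In Hoxa, Hoxb, Hoxc and Hoxd, CDC6 minus WT was 134, 37.6, 46.4 and 113, and APH minus WT was -68.5, -49.0, -42.1 and -85.2. The test therefore does not address either treatment alone. The design allows 15 assignments, and the two-sided permutation p, which doubles the smaller tail, cannot fall below 0.133. Each pooled difference turned sign with the WT library kept. Without WT 1 it was 118, 56.8, 130 and 85.1 for Hoxa, Hoxb, Hoxc and Hoxd. Without WT 2 it was -52.3, -68.1, -126 and -57.5.

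Gene by gene, 0 of 38 Hox genes passed the limma test for APH minus WT, where 0.47% of 16802 genes tested passed, with 1 Hox gene (2.63%, against 7.89% of all genes) at an unadjusted p below 0.05. For CDC6 minus WT, 1 of 38 passed, the Hoxb5 described above, beside 0.327% of all genes, with 3 (7.89% against 6.12%) at an unadjusted p below 0.05. For APH minus CDC6, 0 of 38 passed beside 0.815% of all genes, with 5 Hox genes (13.2% against 14.5%) at an unadjusted p below 0.05. All 38 Hox genes were covered in enough libraries to be tested. The median log2 difference was -0.18 for APH minus WT (-0.28 over all genes), 0.43 for CDC6 minus WT (0.34 over all genes) and -0.56 for APH minus CDC6 (-0.65 over all genes). Without scaling the CDC6 minus WT medians were 0.09 for Hox genes and 0.04 for all genes, and those of APH minus CDC6 -0.24 and -0.36. These comparisons share libraries and are given side by side only. Relative to the shift of all genes, 24 of 38, 24 of 38 and 21 of 38 Hox genes lay above the median of all genes in the 3 comparisons. Both CDC6 libraries were above both APH libraries in scaled cover at 27 of 38 Hox genes, 71.1% against 62.0% of all genes; without scaling this held at 16 of 38, 42.1% against 47.1%. Both CDC6 libraries were above both WT libraries at 20 of 38, 52.6% against 31.1%; without scaling at 6 of 38, 15.8% against 12.7%. WT 1 was the highest of the 6 libraries at 10 of 38 in scaled cover, 26.3% against 27.4%, and without scaling at 26 of 38, 68.4% against 46.7%.

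**Figure D4:**
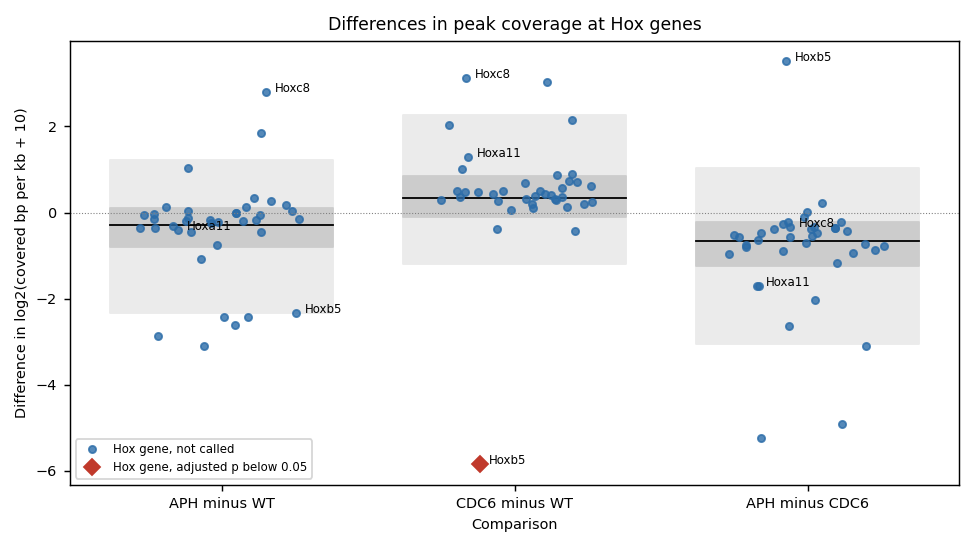
Difference in log2(scaled covered bp per kb + 10) for each of the 38 Hox genes (points) in the 3 comparisons, over the middle 50% (dark grey) and middle 90% (light grey) of the genes tested, with their median as a line. Only Hoxb5, at -5.85 in CDC6 minus WT, passed an adjusted p of 0.05.

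The authors' peaks were ranked within each library by −log10 q-value. The strongest peak of a Hox gene had a median percentile rank of 89.0 ± 3.13 (mean ± SD of the medians of 6 libraries), against 84.6 ± 2.28 for all genes with a peak. Within each cluster the gene with the highest mean rank was Hoxa13 (94.1), Hoxb3 (95.2), Hoxc13 (96.1) and Hoxd8 (97.9). The authors' fold over the control at the strongest peak of Hoxd8 was 7.19 and 4.33 in WT, 6.6 and 6.85 under APH, and 6.38 and 7.93 under CDC6. Folds of different lists are not compared. Shared bases over joint bases of 2 libraries in the clusters ran from 0.445 for the WT pair to 0.749 for the CDC6 pair, with 0.68 for the APH pair, and over the whole genome from 0.2 to 0.569. The WT pair was the lowest of the 15 pairs inside the clusters.

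The promoters allowed a comparison free of gene length, over windows of 300 bases. An origin lay on 5 of 24 Hox promoters in the WT list (20.8% against 26.5% of 21045 promoters), 9 of 24 in the APH list (37.5% against 27.6%) and 10 of 24 in the CDC6 list (41.7% against 34.5%). On this measure the WT share of Hox genes was below that of all promoters, while by gene window it was above. MACS peaks on the same promoters went the other way from the WT list. Their share was 79.2% against 58.2% of all promoters in WT 1, and 41.7% against 38.4% in WT 2. The promoters belong to 22 of the 38 genes, so the sets of genes differ as well. The 5 with an origin in all 3 lists belonged to Hoxa10 (a promoter inside the gene), Hoxa11, Hoxd1, Hoxd8 and Hoxd13. Hoxa6, Hoxa13, Hoxd9 and a promoter of Hoxd11 had one in the APH and CDC6 lists, and Hoxa5 in the CDC6 list. No Hoxb or Hoxc promoter in the table carried a listed origin: Hoxb1, Hoxb4, Hoxb8 and Hoxc4 were those present.

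Hox promoters held a median of 14.5 CpG in 300 bases, against 13 over all promoters, with a range of 4 to 45. The 10 with an origin in any list had a median of 25.5 CpG and the 14 without one 11. Hoxd8 was the exception, with 6 CpG and an origin in all 3 lists, whereas Hoxd10, Hoxd3 and Hoxa3 had 22, 20 and 20 CpG and no origin on the promoter. Of the 14 promoters without a listed origin, 9 had a MACS peak in WT 1 and 2 in WT 2. In APH 1 and APH 2 these counts were 1 and 4, and in CDC6 1 and CDC6 2 they were 8 and 5. The motif of 4 runs of GGG, each 1 to 7 bases N apart and searched on both strands, which can fold into a G-quadruplex, was in 7 of 24 Hox promoters (29.2%, against 22.3% of all promoters). It was in 4 of the 10 with an origin and 3 of the 14 without. The same splits of CpG and motif over all promoters are not given here. Neither contrast is therefore shown to be particular to Hox genes. A match describes the letters and not a structure. Among the merged regions, 14 of 41 had their centre within 1 kb of a start in the table, and 8 of the 20 in all 3 lists did. The table holds no start for 16 of the 38 genes, so these are the fewest that lie near a start. The share of all 46639 merged regions near a start is not given here. These counts are therefore not shown to be particular to the clusters.

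**Figure D5:**
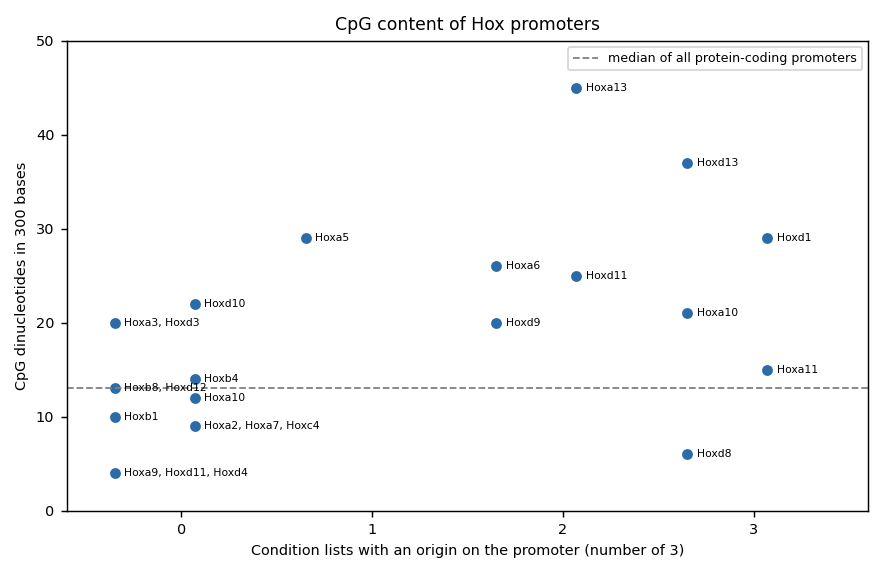
Number of CpG dinucleotides in the 300 bases around each of 24 Hox promoters (vertical axis) by the number of condition lists with an origin on it (horizontal axis; points are spread sideways for legibility). The dashed line is the median of all promoters, 13; all 10 promoters with an origin except that of Hoxd8 lie above it.

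The clusters also hold microRNA genes, whose mature strands share seeds across clusters. The RefSeq sequences are shown 5′ to 3′ with the seed (bases 2 to 8) in capitals, because hairpins of the same seed differed in whether an origin lay beside them.
miR-196b-5p: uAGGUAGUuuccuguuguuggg
miR-196a-5p: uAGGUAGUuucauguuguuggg
miR-10a-5p: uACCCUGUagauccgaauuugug
miR-10b-5p: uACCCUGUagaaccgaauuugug
Mir196b of the Hoxa cluster (chr6:52230081-52230165, minus strand, GRCm38.p6), between Hoxa9 and Hoxa10, had an origin within 1 kb in all 3 lists and 43.0% to 72.2% of that window covered in the 6 libraries. Mir196a-1 of Hoxb and Mir196a-2 of Hoxc, which yield miR-196a with the same seed AGGUAGU, had none, and peaks covered 0% to 15.8% and 0%. Mir10a of Hoxb and Mir10b of Hoxd, with the seed ACCCUGU, also had none, and peaks covered at most 5.69% and 7.06%.

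Genes that work with or regulate Hox genes had larger shares with an origin than the Hox genes in each list, and their median lengths are greater; these shares were not tested. Hox cofactors, the Pbx, Meis and Pknox proteins that bind DNA with Hox proteins, had an origin at 7, 8 and 8 of 9 in the WT, APH and CDC6 lists, with a median length of 139224 bp. The ParaHox and Evx genes had one at 6, 6 and 7 of 8, Cdx4 being listed in none, and regulators of Hox expression such as Ezh2, Kmt2a and Rarb at 11 of 11 in each list. Of 64 developmental transcription factors outside the clusters (median length 7481 bp), 53, 59 and 58 had an origin. Of 62 canonical histone genes, a clustered family of shorter genes (median length 491 bp), 13, 16 and 30 had one. Genes beside the clusters had one at 4, 5 and 4 of 7. None of these lists except the histone genes had a member that passed limma, where 6 of 57 tested histone genes fell in APH minus WT (0.357% of all genes fell) and 6 of 57 in APH minus CDC6 (0.684%).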

How the data were processed

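Sites of replication initiation were measured by short nascent strand sequencing in 6 libraries of mESCs (WT, APH and CDC6, 2 each). The submitters' processing notes state that MACS2 2.0.10, BWA 0.7.10, bedtools 2.23.0, Picard 1.107, SAMtools 0.1.19 and FastQC were run, and the builds GRCm38, mm10 and mm9 are named. Each tool's role was not given in the sources used here. Deposited condition lists give 2 scores for each origin, whose meaning is not stated. The MACS peaks, called per library against 1 shared control, carry the authors' score, ratio (fold over control), and −log10 of the p-value and q-value; they end at a −log10 q of 1.0 and a width of 400 bp. These values served to rank and describe peaks inside 1 list. File labels of a second deposited list for each library went against those of the MACS lists, so these were used in an alternative only.

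A gene had an origin or peak where at least 1 bp overlapped its RefSeq window (body and 1 kb on each side, GRCm38.p6). Covered bases of merged peaks were scaled to the mean total of the 6 libraries and tested as log2(bp per kb + 10) with limma 3.58.1 (R 4.3.3, trend, Benjamini-Hochberg over all 16802 genes covered in at least 2 libraries). The procedure was run on simulated data whose spread was smaller than the real spread at most genes. That run therefore does not show how often calls are wrong in these data. All 3 conditions shared 1 estimate of the spread, so the difference between WT 1 and WT 2, with its line and medium, enters every comparison. Clusters were compared by a two-sided exact permutation test (scipy 1.17.1). Alternatives were other windows, pseudocounts, scalings, filters, peak thresholds, list definitions, a replicate block and each library left out. Values in every library were given for genes with an origin in all 3 lists, in 1 list or in both stress lists but not WT, and for the gene of highest rank in each cluster; other genes given by library (Hoxa9, Hoxb1, Hoxb5, Hoxb13, Hoxd12) were chosen after their values were seen, as were the counts of genes whose pairs of libraries do not overlap and their values without scaling. The genes and lists were chosen with earlier results of these data known.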

Additional observations from a re-analysis of the deposited data

How the results depend on the processing

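The Hox counts of the condition lists stayed within 1.5 times under other windows, origins at least 50% inside, and equal list lengths. The second lists gave 35 (WT), 31 (APH) and 31 (CDC6), which does not keep the order of 21, 20 and 28; peaks in both libraries gave 32 (WT) and 33 (APH), and 31 (APH) at −log10 q of at least 2; the peaks of 1 library gave 32 to 38 (WT), 33 to 34 (APH) and 35 to 37 (CDC6). Cluster differences between stressed and WT libraries turned sign without scaling (Hoxa -25.8, Hoxc -46.8, Hoxd -45.2), by number of peaks (Hoxb 0.708) and at −log10 q of at least 2 (Hoxb 17.7, Hoxc -13.8, Hoxd -5.29). With 1 library left out they ran from -52.3 to 118 (Hoxa), -68.1 to 56.8 (Hoxb), -126 to 130 (Hoxc) and -57.5 to 85.1 (Hoxd). The cause was not tested.

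Genes called by limma for APH minus WT (79) became 192 with a pseudocount of 1 and 0 with 100, by number of peaks, at −log10 q of at least 2, with a 5 kb window and with the replicate block; with 1 library left out they ran from 0 to 1046. For CDC6 minus WT (55) they became 11 with a pseudocount of 1, 137 without the filter, 18 without scaling, 115 at −log10 q of at least 2, and 0 by number of peaks, with 5 kb and with the replicate block (0 to 1764 with 1 library left out). For APH minus CDC6 (137) they became 241 and 53 with pseudocounts of 1 and 100, and 0 by number of peaks, with 5 kb and with the replicate block (0 to 1148). Leaving out any APH or CDC6 library gave 0 in all 3 comparisons, where 695 to 1760, 579 to 1369 and 795 to 2661 genes had an unadjusted p below 0.05 over the fits with 0 calls; leaving out WT 1 gave 454, 1764 and 1147, and leaving out WT 2 gave 1046, 221 and 1148. The Hox genes called for CDC6 minus WT became 0 with a pseudocount of 100, without scaling, by number of peaks, with 5 kb and with the replicate block, and 0 to 4 with 1 library left out (4 without WT 1); those for APH minus WT ran from 0 to 2, and those for APH minus CDC6 from 0 to 2, with 1 at a pseudocount of 1 and 1 at −log10 q of at least 2. By number of peaks, Hoxb5 turned to 0.17 for APH minus WT, and Hoxa11 to -0.54 for CDC6 minus WT and 0.46 for APH minus CDC6.

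Same-numbered libraries shared only a number: their deviations correlated at -0.226 (WT and APH), -0.00986 (WT and CDC6) and -0.0475 (APH and CDC6). With the replicate block, Hoxb5 kept its -5.85 for CDC6 minus WT at a limma adjusted p of 0.266. Ranks by fold or with 5 kb gave a median of 89.0 and 89.8, against 89.0; the ranking by peak height was not run, since the lists give no height. With 2 libraries for each condition, a shared spread that includes the WT pair and no read counts, only large differences in cover could pass. An origin missing from a list does not show that a site was silent.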
